A study of Mus musculus with 15 samples.

Results

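A group of 7 RNAs that are known to stay largely in the nucleus were followed across hepatocytes sorted by DNA content and by nuclear number. They were chosen by symbol. They comprise the long noncoding RNAs (lncRNAs) Malat1, Neat1, Kcnq1ot1 and Meg3, and the mRNAs Mlxipl, Nlrp6 and Gcgr, making 7 of the 55984 gene symbols in the count table. All 7 were among the 17488 genes that passed the filter on low counts. Hepatocytes of adult male WT C57BL/6JJcl mice were stained with Hoechst and sorted by DNA content into a 2n gate (2n-whole) and a 4n gate (4n-whole), and the latter further into the fractions 4n-bottom and 4n-top. By the study's gating, 4n-bottom is enriched for cells with 2 nuclei, and 4n-top less completely for cells with 1 nucleus. Every population held 4 libraries, from mice 1 to 4, except 4n-top, which held 3, from mice 2 to 4. No population carried an engineered allele or a treatment. Cells of all 4 populations were perfused, dissociated and stained before RNA was taken from whole cells, so the levels below are of total and not of nuclear RNA.

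Many nuclear lncRNAs act where they are made: they build nuclear bodies, or they coat and silence a stretch of their own chromosome. Some spliced and polyadenylated mRNAs are also held back in the nucleus and released slowly, and in liver Mlxipl, Nlrp6 and Gcgr are known examples. A mouse hepatocyte can double its genome either in 1 enlarged nucleus or in a pair of nuclei. The samples therefore allow the level of such RNAs to be set against DNA content (4n against 2n) and against nuclear number at equal DNA content (4n-top against 4n-bottom).

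The 3 mRNAs rose in 4n-whole hepatocytes compared with 2n-whole hepatocytes, by 1.53-fold for Mlxipl, 1.46-fold for Nlrp6 and 1.45-fold for Gcgr, in 4 of 4 mice each. None of the 4 lncRNAs passed the same test. Between 4n-top and 4n-bottom none of the 7 RNAs passed, nor did any when either fraction was compared with 2n-whole. A gene was called at an adjusted p-value under 0.05 with an absolute log2 fold change above 0.5, by edgeR's quasi-likelihood test with the mouse as a replicate block. With these rules 3 of 7 members and 3.47% of all tested genes (607 genes, of which 50.2% were higher in 4n-whole) were called for 4n-whole against 2n-whole, and 1.74% of all genes were called as higher. At an unadjusted p-value under 0.05 there were 4 of 7 members and 20.4% of all genes. When libraries were scaled by their totals alone, 1509 genes were called and 88.4% of these were higher, with the median log2 fold change of all genes at 0.20 in place of -0.0070. Relative to that median the 3 mRNAs were higher under this scaling too, with Mlxipl at 0.83 before that median is subtracted.

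**Figure D1:**
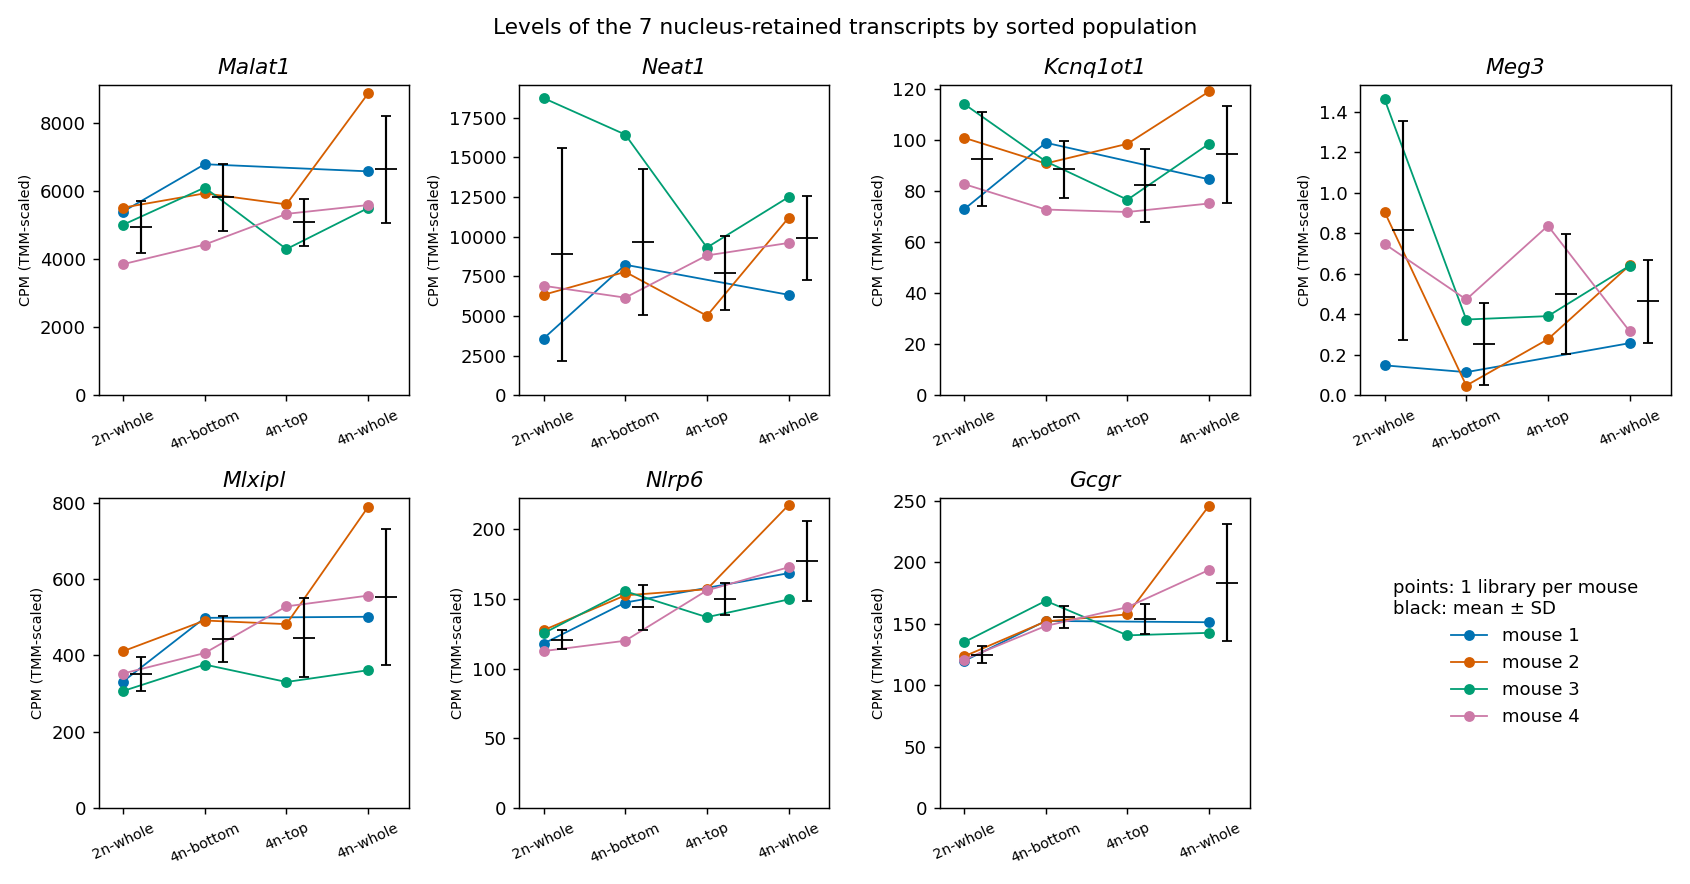
Level of each of the 7 RNAs in CPM (counts per gene relative to the TMM-scaled library total) by sorted population, with 1 point per library, lines joining libraries of the same mouse and black bars for the mean ± SD. Mlxipl, Nlrp6 and Gcgr have their highest mean in 4n-whole, where mouse 2 reaches 789, 217 and 246 CPM, and Neat1 is highest in mouse 3 in every population.

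In GRCm39, Malat1 (chr19:5845717-5853602) and Neat1 (chr19:5874736-5897132) lie beside each other on the minus strand. Kcnq1ot1 (chr7:142731402-142850327, minus strand) overlaps Kcnq1 on the opposite strand, and Nlrp6 (chr7:140500815-140509105) lies on the same chromosome. Meg3 is at chr12:109506877-109538165, Mlxipl at chr5:135118744-135168615 and Gcgr at chr11:120413696-120429815, all on the plus strand, like Nlrp6. The counts are per gene and are not split by transcript.

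Total counts per library were between 22049498 and 42096421. The 9 hepatocyte markers summed to between 87241 and 118927 CPM in every library, with Alb alone at population means between 55771 and 64647 CPM. In 4n-whole against 2n-whole 0 of these 9 were called by edgeR or DESeq2. At an unadjusted p-value under 0.05 there were 5, and their median log2 fold change was -0.12. The 10 endothelial markers summed to between 5.65 and 31.1 CPM, the 10 stellate cell markers to between 2.19 and 7.37 CPM and the 10 Kupffer cell markers to between 0.469 and 9.31 CPM. For these 3 lists edgeR called 0 of 10, 0 of 7 and 0 of 7 tested genes in 4n-whole against 2n-whole. At an unadjusted p-value under 0.05 there were 1, 0 and 2, and DESeq2 after ComBat-seq called 1, 0 and 1. Their median log2 fold changes against 2n-whole were -0.76, 0.0092 and -1.58 in 4n-bottom and -1.04, -1.56 and -3.75 in 4n-top. In 4n-whole against 2n-whole they were -0.29, -1.57 and -2.23. Of 4 tested biliary markers 2 fell in that comparison (Spp1 and Sox9), 3 had an unadjusted p-value under 0.05 and the median log2 fold change was -2.81. The 7 biliary markers summed to between 34.7 and 47.4 CPM in 2n-whole and between 16.404 and 31.2 CPM in 4n-whole, and their part in the results was not tested. In 4n-top, 5 of 7 biliary markers, Krt19 and Epcam included, were at 0 in every library. The 4n-whole library of mouse 2 stood apart, with the lowest total, the lowest mitochondrial share of counts (8.84%) and the highest TMM factor (1.13). Counts per gene were not related to a number of cells or to added standards. In these bulk samples, fewer cells of a type and less RNA per cell cannot be told apart.

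Mlxipl encodes ChREBP, the glucose-responsive transcription factor that turns on glycolytic and lipogenic genes. In 2n-whole, Mlxipl was at 332, 411, 307 and 352 CPM in mice 1 to 4, and in 4n-whole at 501, 789, 361 and 557 CPM. The 4n-whole level was the higher of the pair in every mouse, although the lowest 4n-whole library (mouse 3) lay below the highest 2n-whole library (mouse 2). The ratio within a mouse was between 1.18 (mouse 3) and 1.92 (mouse 2). Its log2 fold change was 0.62 ± 0.11 (SE; edgeR adjusted p = 0.000816). In 4n-bottom Mlxipl was at 498, 491, 376 and 406 CPM in mice 1 to 4, and in 4n-top at 482, 330.3 and 528 CPM in mice 2 to 4. Both fractions lay between 2n-whole and 4n-whole in their means, which were 350.3 ± 44.5 (SD, n = 4) in 2n-whole, 443 ± 61.2 in 4n-bottom, 447 ± 104 (n = 3) in 4n-top and 552 ± 178 in 4n-whole.

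Nlrp6 encodes an innate immune sensor of the NLR family. It was at 118, 127, 125 and 112 CPM in 2n-whole and at 168, 217, 149 and 173 CPM in 4n-whole. Every 4n-whole library was above every 2n-whole library, and mouse 2 again had the highest value. The share of all genes with such a separation was not computed. The log2 fold change was 0.54 ± 0.10 (SE; edgeR adjusted p = 0.0011), higher in 4 of 4 mice. The 4n-bottom libraries held 147, 152, 155 and 119.9 CPM and the 4n-top libraries 157, 137 and 156 CPM. Mouse 4 of 4n-bottom was the single library of either fraction that fell within the range of 2n-whole.

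Gcgr encodes the glucagon receptor, a G protein-coupled receptor through which glucagon raises hepatic glucose output. It was at 119.6, 123, 135 and 121 CPM in 2n-whole and at 151, 246, 143 and 194 CPM in 4n-whole, again without overlap between the populations. Mouse 3 differed little, with a ratio of 1.06, and mouse 2 most, with a ratio of 1.99. For Gcgr the log2 fold change was 0.54 ± 0.11 (SE; edgeR adjusted p = 0.00529), higher in 4 of 4 mice. In 4n-bottom Gcgr was at 152, 152, 169 and 148 CPM and in 4n-top at 158, 141 and 163 CPM. All 7 libraries of the fractions were above the highest 2n-whole library. How many of all genes lacked overlap, here or in 4n-whole, was not computed. Of its exon bases, 21.6% also lie in a gene annotated on the opposite strand, Gm11789, and the strand setting of the counting is not given in the sources used here.

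These 3 calls rested on mouse 2 and on the replicate block. Without mouse 2, the log2 fold changes were 0.49 for Mlxipl (edgeR adjusted p = 0.00246), 0.46 for Nlrp6 (adjusted p = 0.00863) and 0.36 for Gcgr (adjusted p = 0.0626), all under the limit of 0.5. With only the 4n-whole library of mouse 2 left out they were 0.47, 0.46 and 0.38, with edgeR adjusted p-values of 0.00363, 0.00433 and 0.0323. With no replicate block they were 0.66, 0.55 and 0.56, and the edgeR adjusted p-values rose to 0.194, 0.0919 and 0.139. Without mouse 4 the value for Gcgr was 0.48 (edgeR adjusted p = 0.065).

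**Figure D2:**
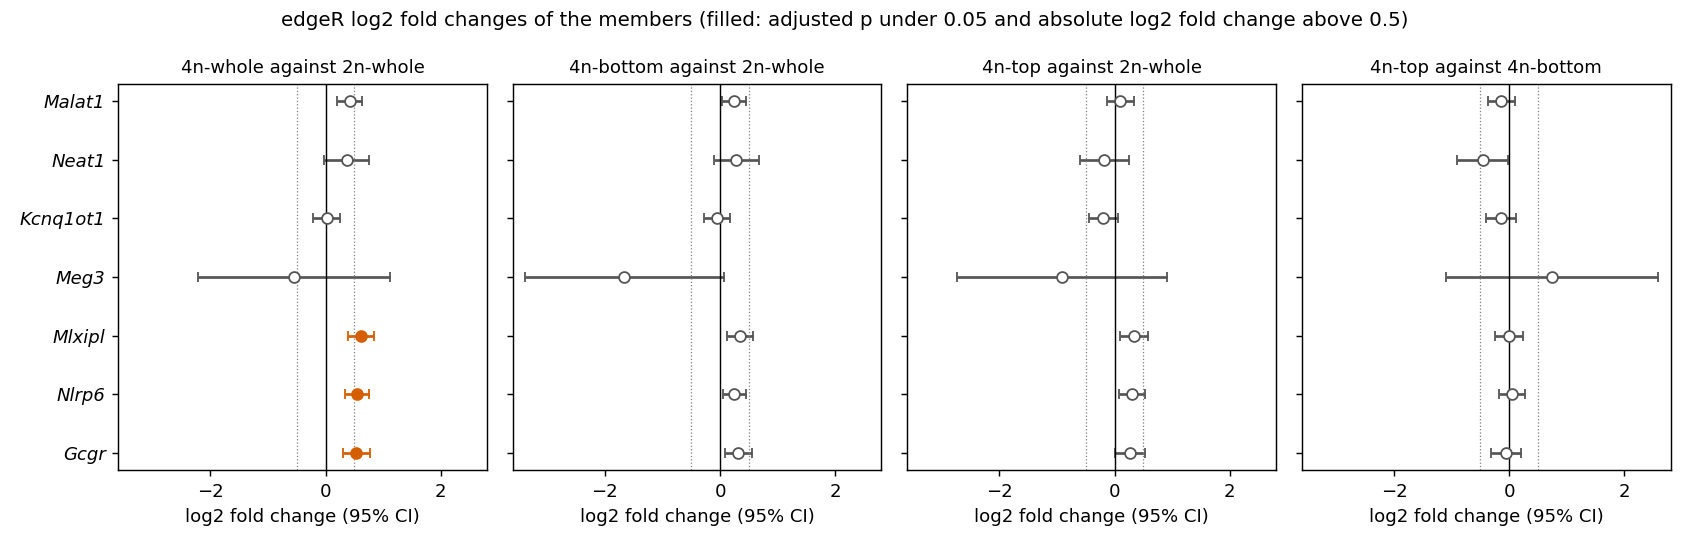
edgeR log2 fold changes (x axes) of the 7 RNAs (rows) in 4 comparisons, with bars for the 95% confidence interval, dotted lines at ±0.5 and filled points for calls. Only Mlxipl, Nlrp6 and Gcgr in 4n-whole against 2n-whole are filled, and the intervals of Meg3 are the widest, from -2.21 to 1.11 in that comparison.

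Pericentral marker genes moved with the same populations. Of 10 markers of hepatocytes near the central vein, 9 rose in 4n-whole compared with 2n-whole, with a median log2 fold change of 1.59. Their summed level was between 681 and 997 CPM in 2n-whole and between 1063 and 3194 CPM in 4n-whole. In 4n-bottom, where 6 of 10 rose, it was between 1031 and 2306 CPM, and in 4n-top, where 6 of 10 rose, between 1048 and 3407 CPM. Of 10 periportal markers, 3 fell in 4n-whole. The lobular markers also differed between the fractions. In 4n-top against 4n-bottom the pericentral gene Glul, which encodes glutamine synthetase, fell (log2 fold change -0.90, edgeR adjusted p = 0.0499). The pericentral list as a whole did not fall, with 6 of 10 positive values and a median log2 fold change of 0.15. At an unadjusted p-value under 0.05 there were 6 of 10 pericentral and 4 of 10 periportal markers. The periportal list had 0 of 10 positive values. The mitochondrial share of counts was between 20.5% and 26.2% in 2n-whole, between 8.84% and 18.5% in 4n-whole, between 12.2% and 23.6% in 4n-bottom and between 11.9% and 13.02% in 4n-top. Mouse 2, with the highest 4n-whole values of the 3 mRNAs, had the lowest mean pericentral level of the 4n-whole libraries, 4.58 on the log2 CPM scale. With a covariate for lobular position the log2 fold changes for 4n-whole against 2n-whole were 0.69 for Mlxipl, 0.56 for Nlrp6 and 0.81 for Gcgr, with edgeR adjusted p-values of 0.569, 0.6 and 0.56, in a fit that called 1 gene in all. With a covariate for the mitochondrial share they were 0.58, 0.45 and 0.30, with edgeR adjusted p-values of 0.302, 0.452 and 0.748. Lobular position and mitochondrial share differ between the populations and cannot be told apart from ploidy.

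**Figure D3:**
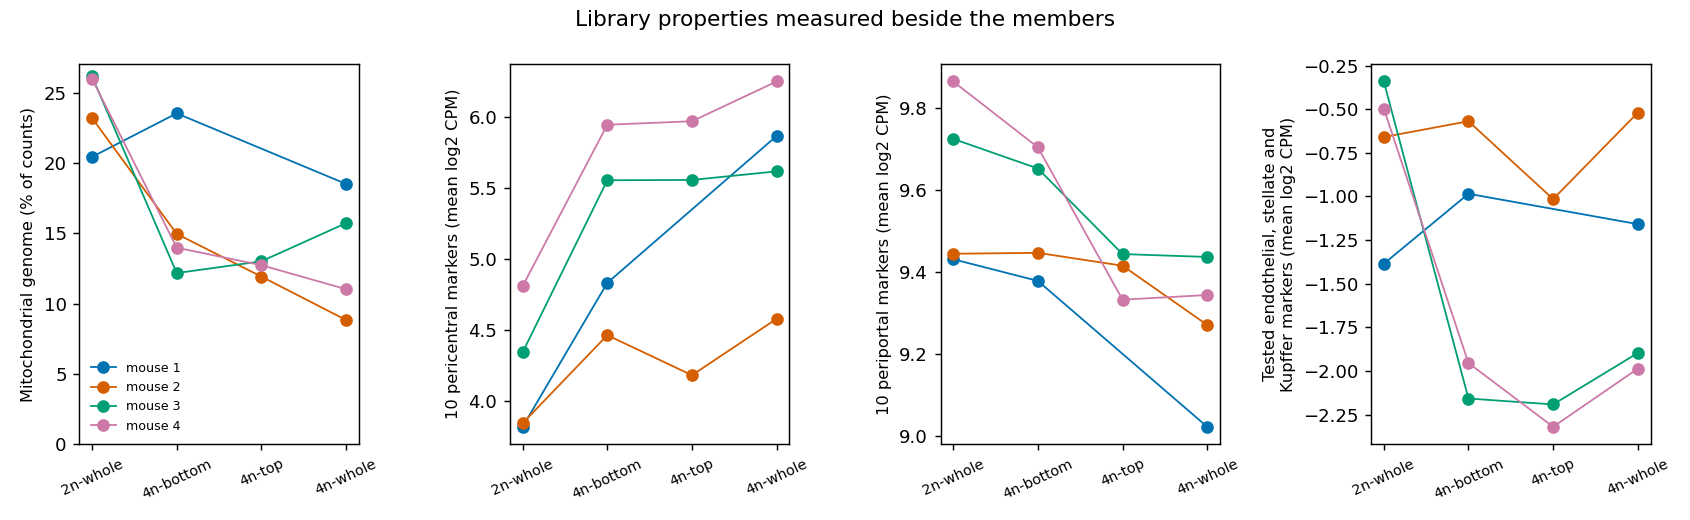
Mitochondrial share of counts (%) and mean log2 CPM of pericentral, periportal and non-parenchymal markers (y axes) by sorted population, with 1 point per library and lines joining libraries of the same mouse. Every mouse has a higher pericentral mean in each 4n population than in 2n-whole, and the 4n-whole library of mouse 2 has the lowest mitochondrial share, 8.84%.

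The start regions of the 3 mRNA genes are shown because the 3 genes moved together. Each window holds 250 bases before and 50 after a RefSeq start, located here by exact match in GRCm39. They were searched on both strands for 4 motifs that do not overlap here: the E-box CACGTG, the TATA box TATAAA, the GC box GGGCGG and the CCAAT box. Capitals mark the matches, so that a GC box on the reverse strand reads CCGCCC and a CCAAT box reads ATTGG. The first Mlxipl start is that of the main isoform, and the upstream start that of a shorter isoform. The counts per gene do not tell these isoforms apart.
Mlxipl, main start, chr5:135135495-135135794, plus strand: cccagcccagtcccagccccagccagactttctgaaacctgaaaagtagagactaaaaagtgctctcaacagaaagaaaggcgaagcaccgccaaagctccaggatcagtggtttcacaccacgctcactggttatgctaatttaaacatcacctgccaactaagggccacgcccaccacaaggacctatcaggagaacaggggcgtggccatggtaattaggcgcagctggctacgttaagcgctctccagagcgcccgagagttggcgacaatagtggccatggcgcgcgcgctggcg
Mlxipl, upstream start, chr5:135118494-135118793, plus strand: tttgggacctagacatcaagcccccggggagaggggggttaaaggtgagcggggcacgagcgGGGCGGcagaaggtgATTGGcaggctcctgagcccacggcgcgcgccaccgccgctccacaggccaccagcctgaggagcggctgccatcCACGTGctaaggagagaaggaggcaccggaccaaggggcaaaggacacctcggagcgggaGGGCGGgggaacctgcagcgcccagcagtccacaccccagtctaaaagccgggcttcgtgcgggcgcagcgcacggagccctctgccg
Nlrp6, chr7:140500565-140500864, plus strand: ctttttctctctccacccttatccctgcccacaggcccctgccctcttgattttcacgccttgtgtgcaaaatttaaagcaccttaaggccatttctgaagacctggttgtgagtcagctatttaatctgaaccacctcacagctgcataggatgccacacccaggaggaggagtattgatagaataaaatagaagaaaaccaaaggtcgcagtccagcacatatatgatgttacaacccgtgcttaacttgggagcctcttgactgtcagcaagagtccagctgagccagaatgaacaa
Gcgr, chr11:120421303-120421602, plus strand: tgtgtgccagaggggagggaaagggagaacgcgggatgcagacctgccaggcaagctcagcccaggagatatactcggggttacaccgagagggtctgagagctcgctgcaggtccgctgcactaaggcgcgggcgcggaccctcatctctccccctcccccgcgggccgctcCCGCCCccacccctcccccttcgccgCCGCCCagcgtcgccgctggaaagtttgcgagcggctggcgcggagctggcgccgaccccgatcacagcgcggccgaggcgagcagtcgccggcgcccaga

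The upstream Mlxipl window held 1 E-box, 2 GC boxes and 1 CCAAT box, and the Gcgr window held 2 GC boxes. None of the 4 motifs was found in the main Mlxipl window or in the Nlrp6 window. Over all 32851 promoter windows of the same length, 7.15% held the E-box, 13.6% the TATA box, 35.7% the GC box and 37.4% the CCAAT box. The windows differed in base composition, with 46.7% GC at Nlrp6, 56.0% and 69.3% at the main and upstream starts of Mlxipl and 71.7% at Gcgr. No motif was common to the 3 genes.

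Malat1 is the most abundant nuclear lncRNA in many cell types and is found in nuclear speckles, which store splicing factors. It was at 5389, 5505, 5001 and 3846 CPM in 2n-whole and at 6569.5, 8854, 5493 and 5581 CPM in 4n-whole (mice 1 to 4). The 4n-whole value was higher within each mouse, and the ranges touched only where mouse 3 of 4n-whole lay just below mouse 2 of 2n-whole. A log2 fold change of 0.42 ± 0.10 (SE; edgeR adjusted p = 0.0154) put it past the limit on the p-value but under that of 0.5 on the change, and 5.47% of all genes had an adjusted p-value under 0.05. Without mouse 3 it passed both limits, at 0.51 (edgeR adjusted p = 0.000607), and without mouse 2 neither, at 0.31 (edgeR adjusted p = 0.0654), nor without mouse 4, at 0.37 (edgeR adjusted p = 0.0524). Of its exon bases, 12.6% are shared with other annotated genes, most of them on the opposite strand. With a covariate for the mitochondrial share it was 0.28 (edgeR adjusted p = 0.736). In 4n-bottom Malat1 was at 6779, 5924, 6093 and 4422 CPM and in 4n-top at 5601, 4289 and 5322 CPM. The 4n-top values thus lay near those of 2n-whole, and those of 4n-bottom were higher than 2n-whole within each of 4 mice.

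Neat1 is the lncRNA scaffold of paraspeckles, nuclear bodies that hold back certain RNAs and proteins. It varied more between mice than between populations. In mouse 3 it was at 18735 CPM in 2n-whole, 12496 CPM in 4n-whole, 16436 CPM in 4n-bottom and 9315 CPM in 4n-top, the highest value of each population. In 2n-whole, mice 1, 2 and 4 had 3577, 6334 and 6905 CPM, a spread of 5.24 times between mouse 1 and mouse 3. The differences between mice passed the test across all genes (edgeR adjusted p = 6.0e-05), as they did for 19.2% of all genes.

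The 4n-whole values of Neat1 were 6336, 11193, 12496 and 9604 CPM, higher than 2n-whole in 3 of 4 mice and lower in mouse 3. For Neat1 the log2 fold change was 0.36 ± 0.19 (SE; edgeR adjusted p = 0.288), and without mouse 3 it was 0.70 (edgeR adjusted p = 0.0013), past both limits. In 4n-bottom mice 1, 2 and 4 were at 8229.6, 7780.2 and 6156 CPM, and in 4n-top mice 2 and 4 at 5014 and 8816 CPM. Mice 2 and 3 were lower in 4n-top than in 4n-bottom and mouse 4 was higher. Between these fractions the log2 fold change was -0.46, with a 95% confidence interval from -0.90 to -0.02 (edgeR adjusted p = 1).

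Malat1 and the full-length form of Neat1 end in a structure that replaces the poly(A) tail. In it, a pair of U-rich stretches folds onto an A-rich tract as a triple helix and protects the 3′ end. The counts per gene do not tell the forms of Neat1 apart. The elements are printed as DNA from GRCm39, on the minus strand on which both genes lie. Capitals mark the U-rich stretches and the end of the A-rich tract. In Malat1 further As directly before that end are in lower case. They are shown because RNAs with this end need not carry the poly(A) tail that many library methods use. The libraries here were made with total RNA as input, and how far the counts depend on poly(A) tails was not tested.
Malat1, chr19:5846010-5846093: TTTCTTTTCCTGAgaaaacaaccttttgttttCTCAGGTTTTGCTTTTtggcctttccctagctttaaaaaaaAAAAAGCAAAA
Neat1, chr19:5874736-5874825: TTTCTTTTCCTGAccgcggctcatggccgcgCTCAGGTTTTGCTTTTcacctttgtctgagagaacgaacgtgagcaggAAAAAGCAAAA

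The capitals are the same letters in both genes because the search accepted only these exact stretches. The bases between them differ. The pattern of the 3 stretches in this order was found at 2 of the 7 member loci and in 2 of 77986 canonical transcripts, which were those of Malat1 and Neat1. This pattern was written from the element that these genes share, so hits in both were set in advance. In Neat1 it ends at the last base of the annotated gene (base 22397 of 22397). In Malat1 it ends at base 7593 of 7886, short of the annotated end.

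Kcnq1ot1 is transcribed antisense to Kcnq1 from the paternal chromosome and silences neighbouring imprinted genes in cis. Its mean CPM was 92.7 ± 18.4 (SD) in 2n-whole, 94.4 ± 19.1 in 4n-whole, 88.6 ± 11.1 in 4n-bottom and 82.3 ± 14.2 in 4n-top. In 2n-whole its values were 72.9, 100.9, 114 and 82.8 CPM and in 4n-whole 84.6, 119, 98.6 and 75.2 CPM, higher in mice 1 and 2 and lower in mice 3 and 4. Its log2 fold change was 0.02 with a 95% confidence interval from -0.21 to 0.25 (edgeR adjusted p = 0.95), an interval that does not reach the limit of 0.5 on either side. The value was 0.36 with the covariate for lobular position and 0.32 with that for the mitochondrial share (edgeR adjusted p = 0.757 and 0.705). In 4n-top it was at 98.6, 76.6 and 71.8 CPM, below 2n-whole in 3 of 3 mice, with a log2 fold change of -0.20 (edgeR adjusted p = 0.584) that turned to 0.085, 0.053 and 0.096 with covariates for non-parenchymal markers, lobular position and mitochondrial share. Of its exon bases, 2.0% lie within annotated genes on the opposite strand, including Kcnq1, which had at most 23 counts in any library.

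Meg3, the maternally expressed lncRNA of the Dlk1-Dio3 imprinted domain, was close to the detection limit. It had 6, 30, 42 and 26 counts in 2n-whole, 10, 16, 24 and 10 in 4n-whole, 4, 2, 12 and 18 in 4n-bottom and 12, 10 and 24 in 4n-top. A floor of 3 counts, which covers counting error only, corresponds to between 0.0693 and 0.120 CPM, and 1 library (4n-bottom, mouse 2) was under it. The mean level was 0.815 ± 0.540 CPM (SD) in 2n-whole, 0.464 ± 0.206 in 4n-whole, 0.252 ± 0.203 in 4n-bottom and 0.501 ± 0.296 in 4n-top. Meg3 was lower in 4n-bottom than in 2n-whole in 4 of 4 mice, with a log2 fold change of -1.66 and a 95% confidence interval from -3.39 to 0.07 (edgeR adjusted p = 0.516). For 4n-whole against 2n-whole the interval ran from -2.21 to 1.11, so that no difference was detectable at this depth. All 15 Meg3 counts were even numbers, as were between 74.2% and 81.4% of all counts from 1 to 10 per library, and whether both mates of a pair were counted is not given in the sources used here.

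Set per kilobase of annotated exons, the 7 RNAs covered a wide range of levels. In 2n-whole, Malat1 had 626 CPM per kilobase and Neat1 397. Mlxipl had 50.0, Gcgr 36.4 and Nlrp6 23.8 CPM per kilobase, and Kcnq1ot1 and Meg3 had 0.988 and 0.0422. In all 4 populations the order of the 7 was the same. The exon lengths pool all annotated transcripts of a gene, 24 for Neat1, 8 for Kcnq1ot1 and 85 for Meg3, and the levels per kilobase depend on them. Taken as mean ± SD, the neighbours Malat1 and Neat1 overlapped in 2n-whole, where the SD of Neat1 was 300.2 CPM per kilobase. They also did in 4n-bottom, at 736 ± 126 and 431 ± 206 CPM per kilobase. In 4n-whole Gcgr overlapped with both Mlxipl and Nlrp6. By single libraries, Gcgr and Mlxipl overlapped in 4n-top as well.

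Nuclear number was addressed by 4n-top against 4n-bottom. None of 7 members was called in this comparison and 0.0114% of all genes were (0.00572% as higher in 4n-top), while at an unadjusted p-value under 0.05 there were 1 member (Neat1) and 2.79% of all genes. DESeq2 with the replicate block, and DESeq2 after ComBat-seq, called 0 members as well. The log2 fold changes of the 3 mRNAs were -0.0026 for Mlxipl (95% confidence interval -0.25 to 0.25), 0.06 for Nlrp6 (-0.17 to 0.28) and -0.06 for Gcgr (-0.32 to 0.20). These intervals lie within ±0.5. For Malat1 the value was -0.14 (-0.37 to 0.09), for Kcnq1ot1 -0.14 (-0.40 to 0.11) and for Meg3 0.74 (-1.09 to 2.58). Since the enrichment of cells with 1 nucleus in 4n-top was incomplete, the intervals describe these sorted fractions and not pure cell classes. With the covariate for lobular position, 0 members were called in this comparison as well.

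Ploidy was also addressed by each fraction against 2n-whole, comparisons that share the 2n-whole libraries with each other and with 4n-whole against 2n-whole. In 4n-bottom 0 of 7 members and 0.463% of all genes were called (0.234% as higher in 4n-bottom). At an unadjusted p-value under 0.05 there were 4 of 7 members and 10.2% of all genes, and DESeq2 in both forms called 0 members. Mlxipl was higher by 0.34 on the log2 scale (edgeR adjusted p = 0.239), Gcgr by 0.32 (edgeR adjusted p = 0.313), Nlrp6 by 0.25 (edgeR adjusted p = 0.358) and Malat1 by 0.24 (edgeR adjusted p = 0.411), each in 4 of 4 mice. Neat1 was at 0.28 and Kcnq1ot1 at -0.05 on the same scale, the latter at 0.068 with libraries scaled by their totals.

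In 4n-top 0 of 7 members and 0.961% of all genes were called (0.44% as higher in 4n-top). At an unadjusted p-value under 0.05 there were 3 of 7 members and 11.3% of all genes, and DESeq2 in both forms called 0 members. Mlxipl was higher by 0.34 on the log2 scale (edgeR adjusted p = 0.233), Nlrp6 by 0.31 (edgeR adjusted p = 0.233) and Gcgr by 0.26 (edgeR adjusted p = 0.439), each in 3 of 3 mice. Malat1 was at 0.10, Neat1 at -0.18 and Meg3 at -0.92. When libraries were scaled by their totals alone, Mlxipl was called in this comparison, at 0.51 (edgeR adjusted p = 0.0342).

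**Figure D4:**
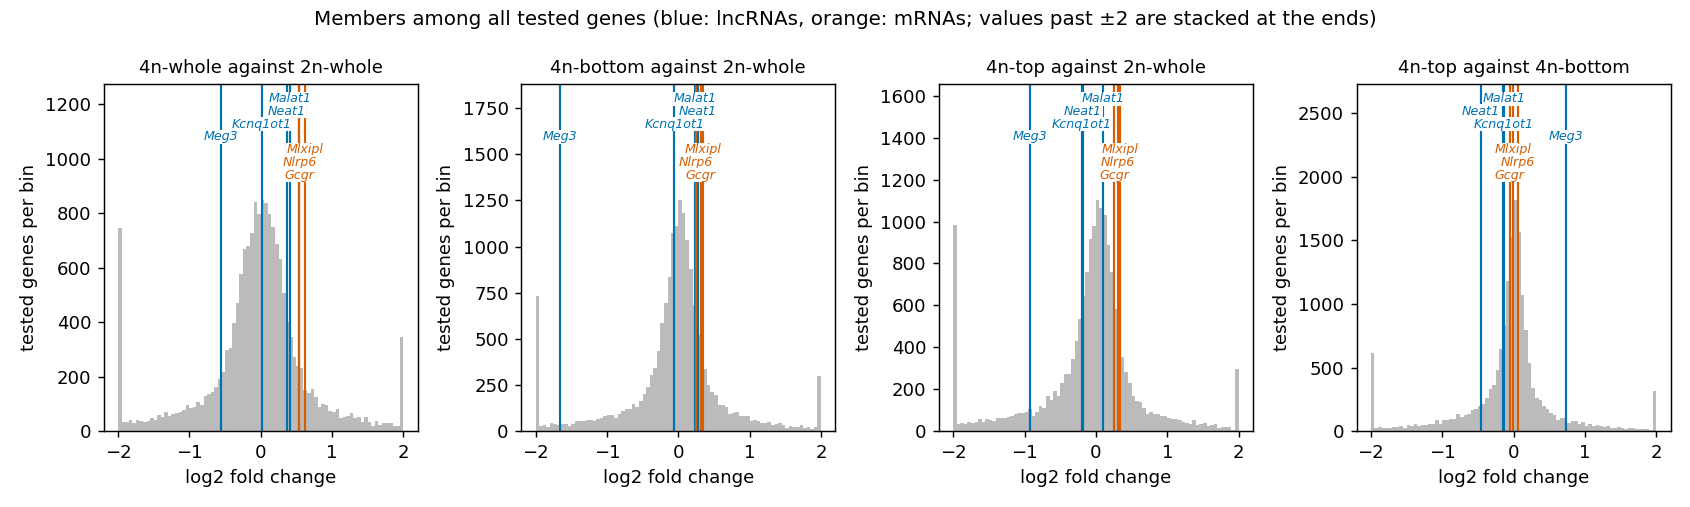
Histogram of the edgeR log2 fold change of all 17488 tested genes (genes per bin) in 4 comparisons, with lines for the 4 lncRNAs (blue) and the 3 mRNAs (orange). For 4n-whole against 2n-whole the 3 mRNAs lie at percentiles 88.4, 86.6 and 86.5, and for 4n-top against 4n-bottom they lie near 0.

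Among all tested genes, the log2 fold changes of Mlxipl, Nlrp6 and Gcgr in 4n-whole against 2n-whole lay at percentiles 88.4, 86.6 and 86.5, those of Malat1 and Neat1 at 82.5 and 80.4, and that of Kcnq1ot1 at 52.4. The median over the 7 members was 0.42, beside a median of -0.0070 over all genes and a median absolute value of 0.30. In 4n-top against 4n-bottom the median over the members was -0.06. These percentiles describe where the members lay and carry no test.

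Other nuclear RNAs, genes for the proteins of nuclear bodies and nuclear export genes were examined as lists. Of 12 tested nuclear lncRNAs outside the members, 2 rose in 4n-whole compared with 2n-whole. Firre, an X-linked lncRNA that helps to organise chromosomes in the nucleus, went from 31.9 ± 3.71 to 55.3 ± 15.5 CPM (SD, n = 4; log2 fold change 0.78, edgeR adjusted p = 0.000759). Snhg11, a snoRNA host gene, went from 5.36 ± 3.10 to 8.05 ± 1.22 CPM (0.77, edgeR adjusted p = 0.0471). The median of the 12 was 0.09.

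Genes for proteins of paraspeckles and speckles, and genes of nuclear export, showed no calls by edgeR in 4n-whole against 2n-whole. The lists held 14 tested paraspeckle genes (1 at an unadjusted p-value under 0.05), 21 speckle and SR protein genes (6) and 16 nuclear export genes (3). DESeq2 in both forms also called 0 of these. Their median log2 fold changes were -0.00094, 0.09 and 0.0088, and 16 of the 21 speckle genes had a positive value. In the other comparisons 0 genes of these lists were called by any of these tools.

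Imprinted neighbours of Kcnq1ot1 and Meg3 were examined next. Of 8 tested genes of the Kcnq1 domain, 0 were called by edgeR in 4n-whole against 2n-whole, with 2 at an unadjusted p-value under 0.05, 0 called by DESeq2 with the block and 1 after ComBat-seq. None of the 8 had a positive value and their median was -0.36. Some genes of this domain were barely detected: Cdkn1c, Phlda2 and Trpm5 had their highest means in 2n-whole, at 0.638, 0.627 and 0.369 CPM. Of the Dlk1-Dio3 domain 2 genes were tested and 0 called by edgeR or DESeq2, with 0 at an unadjusted p-value under 0.05. In 4n-top against 2n-whole both were lower, with a median of -4.58. Both were under that unadjusted limit and 1 was called by DESeq2 with the block. The domain was close to the detection limit: Rtl1 had at most 18 counts in a 2n-whole library and 0 in every 4n-top library.

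Genes that work with the proteins of the 3 mRNAs moved in both directions. Of 18 partners and targets of ChREBP, Txnip rose and Elovl6 fell in 4n-whole compared with 2n-whole. Txnip, which restrains glucose uptake, went from 45.03 ± 7.51 to 66.2 ± 16.1 CPM (0.54, edgeR adjusted p = 0.00102). Elovl6, a fatty acid elongase, went from 73.4 ± 28.5 to 50.3 ± 20.0 CPM (-0.52, edgeR adjusted p = 0.0113). The median of the 18 was -0.0012, with 9 positive values. At an unadjusted p-value under 0.05 there were 10 of 18, beside 20.4% of all genes.

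Among 15 genes of glucagon action and glucose sensing, of which 7 had an unadjusted p-value under 0.05 and 8 a positive value, Ppargc1a fell. Ppargc1a, a coactivator of gluconeogenic genes that is induced by glucagon, went from 23.5 ± 8.30 to 15.5 ± 5.25 CPM (-0.59, edgeR adjusted p = 0.00682). Of 8 tested NLR and inflammasome genes 0 were called by edgeR or DESeq2, with 1 at an unadjusted p-value under 0.05. In the comparisons of the fractions edgeR called 0 genes of these 3 lists, with at most 5 of a list at an unadjusted p-value under 0.05, while both DESeq2 forms called 1 gene each of the glucagon and NLR lists in 4n-top against 2n-whole.

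The members most alike across the 15 libraries, after the mouse effect was removed, were the 3 mRNAs. Pearson's r of their log2 CPM was 0.971 for Mlxipl with Nlrp6, 0.953 for Mlxipl with Gcgr and 0.938 for Nlrp6 with Gcgr. Malat1 had r of 0.919 with Mlxipl and 0.910 with Gcgr, above its r of 0.787 with Neat1. Meg3 had r between -0.11 and -0.04 with the mRNAs. The libraries share mice, scaling factors and the sorted population, so these values are descriptions.

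Over the same libraries, the genes nearest to Mlxipl were Slc12a7 (r = 0.982), Abcc6 (0.974) and Firre (0.974). Those nearest to Nlrp6 were Col27a1 (0.982), Slc12a7 (0.9753) and Mlxipl itself, and those nearest to Gcgr were Gripap1 (0.977), Abcc6 (0.976) and Pcyt2 (0.973). Malat1 was nearest to Srsf5 (0.962), which encodes an SR splicing factor, and Plk3 (0.960). Neat1 was nearest to Gm11889 (0.928), Kcnq1ot1 to Lrch1 (0.925) and Meg3 to Ofd1 (0.881).

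The members also differed in base composition. Among 16447 canonical transcripts of tested genes, Gcgr, Mlxipl and Nlrp6 lay at percentiles 94.3, 86.4 and 76.3 of GC content, and Malat1 and Neat1 at 19.5 and 40.6. The pentamer AGCCC, a motif described for nuclear retention, was searched on the transcript strand. It occurred 2.75 times per kilobase in Mlxipl, 2.03 in Nlrp6 and 1.86 in Gcgr, and 0.634 and 0.848 times in Malat1 and Neat1. These densities lay at percentiles 87.5, 73.5 and 68.5 for the mRNAs and at 19.8 and 28.3 for Malat1 and Neat1. The pentamer is itself rich in G and C, and its relation to base composition was not tested. The median over the transcripts was 1.36 per kilobase and 90.5% held at least 1 copy. A second motif that was searched, ACCTCCC or GCCTCCC, had 1 copy in each of the mRNAs and in Malat1, and 5 in Neat1. Of the transcripts, 47.0% held at least 1 copy of it. The canonical models of Kcnq1ot1 and Meg3 are short isoforms of 1722 and 1656 bases and do not stand for the whole RNAs.

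The 4n-whole gate should hold the cells of both its fractions, so its levels were also set against the mean of 4n-bottom and 4n-top, a comparison added after the values were seen. Of the 7 members, 6 (all but Meg3) had their highest mean in 4n-whole. The log2 difference from the mean of the fractions was 0.25 for Malat1, 0.28 for Mlxipl, 0.27 for Nlrp6 and 0.25 for Gcgr, and 0.32 for Neat1. None of 7 members was called and 0% of all genes were, and the edgeR adjusted p-value of Malat1 and of the 3 mRNAs was 0.787. At an unadjusted p-value under 0.05 there were 4 members and 5.96% of all genes. DESeq2 with the block called 0 members, as did DESeq2 after ComBat-seq. Without mouse 2, or without its 4n-whole library alone, 0 members were under that unadjusted limit.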

How the data were processed

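Hepatocytes of individual mice were sorted by Hoechst fluorescence, and libraries were made from 20 ng of total RNA with a stranded kit. The authors aligned the reads with STAR 2.7.11a to GRCm39 and counted them per gene with featureCounts (Subread). They deposited raw counts for 55984 symbols in 15 libraries, with no normalization and no adjustment for the mouse. The annotation, strand setting, and handling of mates and of reads with several positions are not given in the sources used here. Cells of the 2n gate were spun down differently after sorting, which cannot be told apart from ploidy. A 4n-top library of mouse 1 was not analysed here.

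Counts were tested with edgeR 4.0.16 in R 4.3.3 (TMM, filter defaults with a minimum count of 10 and total of 15, quasi-likelihood F test, all 15 libraries). The mouse was a replicate block, since the subject number in the labels marks the animal. Libraries of a mouse deviated together from the population means, with r of at least 0.0845 in all 21 pairs and 0.158 on average. The same value for libraries of different mice was not computed, so the block rests on the labels. Adjusted p-values follow Benjamini and Hochberg, over 17488 genes. In the main fit they set population differences against the spread left once the mouse is accounted for, estimated over all 15 libraries. Each comparison rests on 3 or 4 mice. CPM are TMM-scaled. Groups came from the sample labels. The members, the comparisons and the gene lists were chosen with earlier results of these data known.

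The named genes were the members, up to 2 genes per direction called from each list, the genes most alike to each member (Pearson's r, 3 searched per member) and marker genes beside a member. Alternatives were no block, DESeq2 1.42.0 with the block, ComBat-seq (sva 3.50.0) then DESeq2, DESeq2 size factors, library totals, mitochondrial and ribosomal RNA left out, no filter, the compared populations alone, no fold limit, a covariate for endothelial, stellate and Kupffer markers, and leaving out each mouse. Covariates for lobular position and mitochondrial share, leaving out 4n-whole of mouse 2, and the comparison of 4n-whole with the mean of its fractions were added after seeing the data. The edgeR step was tested on simulated data. Gene positions, overlaps and transcripts are from GRCm39 with GENCODE M39, and promoter windows from RefSeq. Of the listed symbols, G6pc, Pvt1 and Tf were not found in the count table. A result for 1 gene of these lists is not reported here.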

Additional observations from a re-analysis of the deposited data

How the results depend on the processing

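For 4n-whole against 2n-whole, 3 members were called. The count was 0 with no replicate block, 5 with library totals (Malat1 and Neat1 added), 0 with the covariate for lobular position, 0 with that for the mitochondrial share and 0 without 4n-whole of mouse 2. Leaving out 1 mouse gave between 0 (mouse 2) and 5 (mouse 3). The pairing by mouse follows the animal, and with no replicate block 40 genes were called in place of 607, and no call of a member in the other comparisons changed. For 4n-top against 2n-whole the count was 0, and 1 with library totals. Both DESeq2 forms kept Mlxipl, Nlrp6 and Gcgr. Over all genes DESeq2 with the block called 4686 for 4n-whole against 2n-whole and 3003 for 4n-top against 4n-bottom, and ComBat-seq then DESeq2 1158 and 18. For 4n-whole against 2n-whole the count of 607 became 1509 with library totals, 305 in the compared populations, 957 with no fold limit, 383 with the non-parenchymal covariate, 1 with the lobular and 66 with the mitochondrial one, 338 without 4n-whole of mouse 2 and between 244 and 1025 without 1 mouse. For 4n-top against 4n-bottom, 2 became 25 with no filter, 15 in the compared populations and between 0 and 29 without 1 mouse. For 4n-bottom against 2n-whole, 81 became 0 with no block, 3943 and 283 with the DESeq2 forms, 145 with no filter, 39, 1 and 12 with the 3 covariates and 49 without mouse 4. For 4n-top against 2n-whole, 168 became 2 with no block, 4517 and 550 with the DESeq2 forms, 419 with library totals, 261 with no filter, 300 in the compared populations, 50, 1 and 57 with the covariates and 98 without mouse 4. With no filter on low counts the edgeR adjusted p of Neat1 for 4n-top against 4n-bottom was 2.1e-07 at -0.46, under the fold limit, with a SE of 0.07 in place of 0.22. With the libraries of the 2 populations alone, Gcgr had an edgeR adjusted p of 0.0629 for 4n-whole against 2n-whole.

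Values near 0 changed sign. Kcnq1ot1 in 4n-whole against 2n-whole was -0.025 with ComBat-seq and DESeq2, -0.050 without 4n-whole of mouse 2, and between -0.062 and 0.10 without 1 mouse. Mlxipl in 4n-top against 4n-bottom was 0.013 with no block, 0.017 with ComBat-seq and DESeq2, 0.045 with library totals, 0.055 in the compared populations, 0.042 with the non-parenchymal covariate, 0.0070 with the lobular covariate and 0.012 without 4n-whole of mouse 2. Leaving out 1 mouse gave between -0.19 and 0.079 for Mlxipl, -0.35 and 0.025 for Malat1, -0.15 and 0.031 for Gcgr and -0.086 and 0.16 for Nlrp6.

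In 4n-bottom against 2n-whole, Kcnq1ot1 was 0.068 with library totals, 0.12, 0.15 and 0.17 with the non-parenchymal, lobular and mitochondrial covariates and between -0.23 and 0.038 without 1 mouse, and Neat1 was between -0.035 and 0.48 without 1 mouse. In 4n-top against 2n-whole, the same 3 covariates gave 0.085, 0.053 and 0.096 for Kcnq1ot1. Neat1 was 0.34 with the non-parenchymal and 0.24 with the mitochondrial covariate and between -0.53 and 0.19 without 1 mouse. Malat1 was -0.040 with the mitochondrial covariate and -0.11 without mouse 4. The causes were not tested. Meg3 had at most 42 counts in a library.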

Other observations

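Among the genes of the other lists, Hspa1b, a heat shock gene of the stress list, rose in 4n-whole (log2 fold change 0.86, edgeR adjusted p = 0.0146) and in 4n-top (1.09, edgeR adjusted p = 0.0112) compared with 2n-whole. The biliary genes Spp1 and Sox9 fell in 4n-whole, by 2.81 and 0.62 on the log2 scale (edgeR adjusted p = 2.0e-05 and 0.00229).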
